A study of Mus musculus with 6 samples.

Results

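The genes described here are 10 members of the Notch signaling pathway: the receptors Notch1, Notch2 and Notch3, the ligands Dll1, Dll3 and Jag1, the transcriptional effectors Hes1, Hes5 and Hey1, and Rbpj, the nuclear DNA-binding partner of the receptors. They were chosen by name from a fixed list of probe set identifiers (an Ensembl gene identifier ending in _at), with earlier results of these data known, and all 10 had a row among the 17144 genes on the arrays. Expression was compared between embryonic stem cells of the mouse (ESCs) and neural progenitors made from them (NPCs) on 6 Affymetrix arrays, 3 biological replicates of each cell type with 1 array per replicate. The ESCs were wild type cells of the blastocyst-derived line V6.5 on a 129SvJae/C57B6 F1 background, grown in medium with fetal bovine serum and LIF. The NPCs were wild type cells derived from that same line by differentiation in culture and were kept dividing on polyornithine and laminin in N3 medium with bFGF and EGF, so both cell types come from 1 ESC line. The study's methods state that nearly all cells of such NPC cultures stain for NESTIN, SOX2 and PAX6, but the cells were not sorted, and fewer cells that express a gene and less RNA per cell cannot be told apart on these arrays.

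Notch is a receptor that signals between touching cells. A Delta or Jagged ligand on a neighboring cell pulls on the receptor, which is then cut by ADAM10 and by gamma-secretase, and the released intracellular domain enters the nucleus and joins RBPJ on DNA. RBPJ represses its targets without that domain and activates them with it. The best known targets are the HES and HEY genes, which encode basic helix-loop-helix repressors. In the developing brain these repressors hold down proneural genes and keep progenitors from becoming neurons, while in ESCs the pathway is dispensable for self-renewal.

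RBPJ binds DNA at the core sequence TGGGAA, most strongly within GTGGGAA, and the promoter of Hes5 is a textbook target. Promoter sequences were at hand from RefSeq (GRCm38.p6) for 8 of the 10 genes, as 250 bases before and 50 bases after a start site, but not for Hes1 and Hey1. GTGGGAA, searched on both strands, occurred in the promoter of 1 of those 8 genes, Hes5, and in 6.38% of all 32851 promoters of that length. It occurred 2 times in the Hes5 promoter, which held for 0.256% of all promoters. The shorter core TGGGAA, which every GTGGGAA contains, was present in the promoters of Hes5 and Rbpj and in 25.6% of all promoters. The 250 bases before the start of Hes5 (chr4:154960673-154960922, plus strand) are shown because they carry both copies of the longer sequence, in capitals and in opposite orientations, with first bases 226 and 83 bases before the start. The 250 bases before the first of the listed starts of Rbpj (chr5:53590096-53590345, plus strand) are shown because they carry 2 copies of the core, also in opposite orientations and in capitals, 149 and 65 bases before the start. Of all promoters, 3.79% held 2 or more copies of the core. The promoter at the other listed start of Rbpj held 1 copy.
Hes5: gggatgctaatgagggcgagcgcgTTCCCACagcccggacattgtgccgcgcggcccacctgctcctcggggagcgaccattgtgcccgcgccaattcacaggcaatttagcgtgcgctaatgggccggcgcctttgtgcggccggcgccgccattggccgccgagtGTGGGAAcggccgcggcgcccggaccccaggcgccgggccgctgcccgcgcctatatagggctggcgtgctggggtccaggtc
Rbpj: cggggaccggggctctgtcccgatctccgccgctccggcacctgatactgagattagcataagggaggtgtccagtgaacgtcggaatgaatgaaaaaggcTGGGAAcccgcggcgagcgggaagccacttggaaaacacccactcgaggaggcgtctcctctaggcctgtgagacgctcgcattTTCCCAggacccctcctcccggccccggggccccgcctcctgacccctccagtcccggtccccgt
The sites that HES and HEY proteins bind were searched in the same way. CACNAG, the N box, was present in the promoters of Notch1, Notch2, Notch3 and Dll1, and in 42.5% of all promoters. CACGNG was present in those of Jag1, Notch2, Notch3 and Dll1, and in 27.5% of all promoters. These are matches of letters and not measured binding.

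Before the members are described, the arrays themselves need a short account. Values are log2 robust multi-array average (RMA) values with 1 value per gene, so a difference of 1 is a 2-fold change, and levels of different genes are not compared because each gene has its own probes. The median of an array was 5.75 to 5.76 in ESCs and 5.59 to 5.61 in NPCs, so every NPC array had the lower median. Over all genes, Pearson's r was 0.996 to 0.998 between ESC arrays and 0.997 between NPC replicates 1 and 2, and it was lower, 0.978 to 0.979, between NPC replicate 3 and either of these. The labels were checked against markers that could be named. Pou5f1, the ESC factor OCT4 and the 1 named gene of a pluripotency list of 10, had a mean of 12.44 in ESCs and 3.70 in NPCs, and all 8 named genes of 11 on the neural progenitor list, among them Nes, Fabp7 and Vim, were higher in NPCs. Names other than those of the members come almost wholly from a table sorted by the rise in NPCs, so the direction of the named progenitor, neuron, astrocyte and oligodendrocyte genes follows from the naming and does not check the labels. Fibroblast, mesoderm and endoderm markers had no named gene and were not analyzed here.

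The pathway did not move as a block between ESCs and NPCs. Notch1, the ligands Dll1 and Jag1 and the effectors Hes5 and Hey1 rose in NPCs, Notch3 and Rbpj fell, and Notch2, Dll3 and Hes1 did not pass. A gene was called when limma gave an adjusted p under 0.05 (Benjamini-Hochberg over 17144 genes) and the means differed by more than 1.5-fold. By that rule 7 of the 10 members were called, against 34.1% of all genes, and on the adjusted p alone 8 members passed, against 49.0%. Of these 8, Hes1 and Hes5 were no longer under 0.05 with any of the ESC arrays left out. In NPCs 5 members were higher, against 15.4% of all genes, and 2 were lower, against 18.7%. The median log2 difference of the members, NPCs minus ESCs, was 0.60, and that of all genes was -0.036. Without NPC replicate 3 the median of the members was 0.38. The median size of the difference, regardless of direction, was 0.99 for the members and 0.33 for all genes. For 9 of the 10 genes the 3 NPC arrays did not overlap the 3 ESC arrays, as held for 58.7% of all genes. The NPC arrays were above for 7 members, against 26.1% of all genes, and below for 2, against 32.6%. For each of those 9 genes an exact two-sided permutation test gave p = 0.1, the smallest that 3 arrays against 3 allow.

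**Figure D1:**
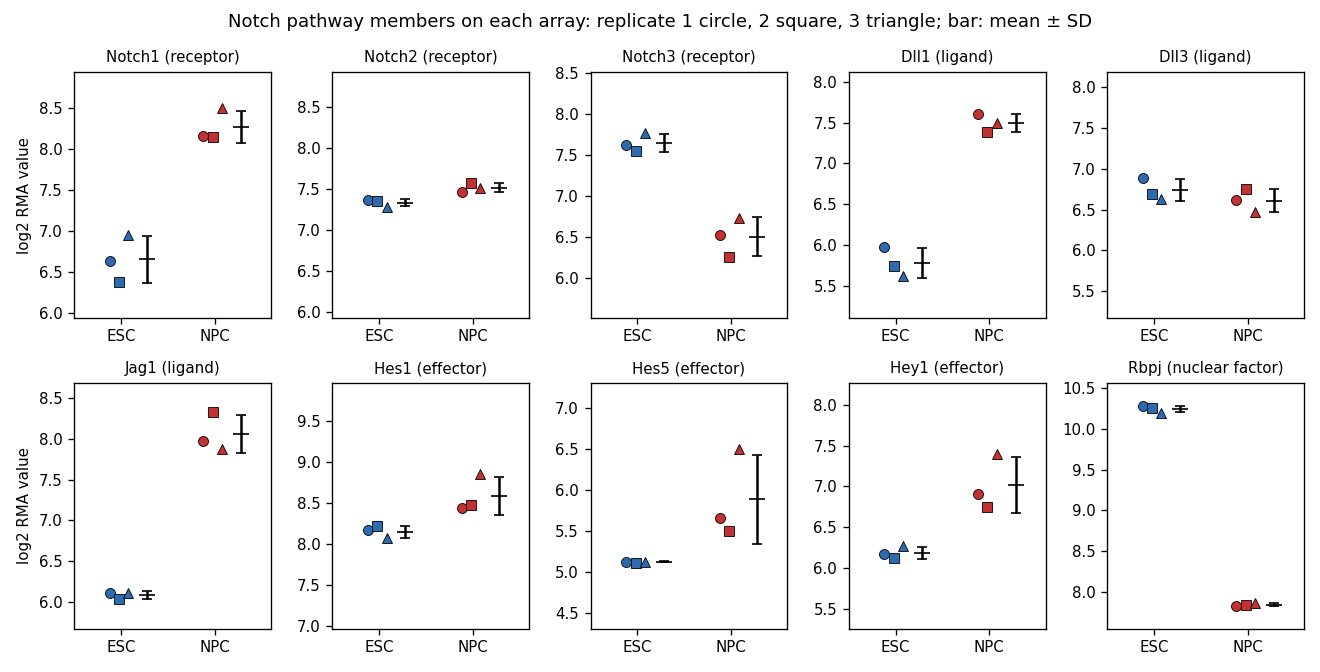
Log2 RMA value of each of the 10 genes on each array (blue, 3 ESC arrays; red, 3 NPC arrays; circle, square and triangle for replicates 1, 2 and 3), with the mean ± SD of each cell type beside the points. Every panel spans 3 log2 units, so heights can be compared as changes but not as levels between genes. Rbpj shows the widest gap between cell types and Dll3 is the gene whose arrays overlap.

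Among the receptors, Notch1 and Notch3 changed in opposite directions and Notch2 changed little. Notch1 (ENSMUSG00000026923_at), the receptor most studied in neural progenitors, read 6.63, 6.37 and 6.95 in the ESC arrays and 8.16, 8.15 and 8.50 in the NPC arrays. The cell types did not overlap, and the nearest arrays were 1.20 apart. The mean was 6.65 ± 0.29 (SD, n = 3 arrays) in ESCs and 8.27 ± 0.20 (SD, n = 3 arrays) in NPCs, and the log2 difference of 1.62 (standard error 0.17, adjusted p = 0.000178 from limma) is 3.07-fold. Of all 17144 genes, 5.01% rose by more.

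Notch3 (ENSMUSG00000038146_at), a receptor better known from vascular smooth muscle, read 7.62, 7.55 and 7.77 in the ESC arrays and 6.53, 6.25 and 6.73 in the NPC arrays. Every NPC array was below every ESC array. From 7.65 ± 0.11 (SD, n = 3 arrays) to 6.50 ± 0.24, its log2 value fell by 1.15 (standard error 0.13, adjusted p = 0.000327 from limma), which is 2.21-fold. Within an array, the log2 ratio of Notch1 to Notch3 therefore shifted toward Notch1, by 2.63, 2.90 and 2.77 in NPC replicates 1, 2 and 3 relative to the ESC mean of that ratio. In ESC arrays the same ratio lay between -0.18 and 0.18 around its mean. The mean shift of 2.77 is 6.80-fold, and an exact two-sided permutation test of the 3 arrays against 3 gave p = 0.1, the smallest possible. This pair was chosen after its values were seen.

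Notch2 (ENSMUSG00000027878_at), a broadly expressed receptor, read 7.36, 7.36 and 7.28 in ESCs and 7.47, 7.57 and 7.51 in NPCs. The NPC arrays were all higher, but by little. The log2 difference of 0.18 (95% interval 0.0036 to 0.36, adjusted p = 0.0870 from limma) was not called. The interval lies wholly below the 1.5-fold threshold, so a change of that size was not seen in either direction. With each array centred on its median, the difference of Notch2 was 0.34 (adjusted p = 0.00885 from limma). After quantile normalization of the deposited values it was 0.23 (adjusted p = 0.0332 from limma). Both passed on p but not on size.

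Among the ligands, Jag1 and Dll1 rose and Dll3 did not pass. Jag1 (ENSMUSG00000027276_at), a Jagged ligand, read 6.12, 6.03 and 6.11 in the ESC arrays and 7.98, 8.32 and 7.88 in the NPC arrays. The cell types were far apart, with 1.76 between the highest ESC array and the lowest NPC array. Its mean went from 6.09 ± 0.047 (SD, n = 3 arrays) to 8.06 ± 0.23, and the log2 difference of 1.97 (standard error 0.13, adjusted p = 1.54e-05 from limma), or 3.92-fold, was the largest rise of the 10 genes. Of all genes, 3.56% rose by more.

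Dll1 (ENSMUSG00000014773_at), the Delta ligand that newborn neurons present to their neighbors, read 5.98, 5.74 and 5.62 in ESCs and 7.60, 7.38 and 7.49 in NPCs. No array overlapped, with the lowest NPC array well above the highest ESC array. The mean rose from 5.78 ± 0.18 (SD, n = 3 arrays) to 7.49 ± 0.11, a log2 difference of 1.71 (standard error 0.12, adjusted p = 2.07e-05 from limma) or 3.28-fold.

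Dll3 (ENSMUSG00000003436_at) is a divergent Delta protein that acts inside the cell that makes it, dampening Notch signaling there rather than activating it in neighbors. It read 6.89, 6.69 and 6.63 in ESCs and 6.62, 6.75 and 6.47 in NPCs, and the cell types overlapped. Its log2 difference of -0.13 (95% interval -0.39 to 0.14, adjusted p = 0.406 from limma) was not called, its exact permutation p was 0.4, and its sign turned when each array was centred on its median, where it was 0.028. Set against Dll3 within each array, Dll1 shifted up by 1.95, 1.58 and 1.98 in NPC replicates 1, 2 and 3 relative to the ESC mean of the ratio. The ESC arrays stayed within -0.056 and 0.045 of that mean. The exact two-sided permutation p for 3 arrays against 3 was again 0.1, the smallest possible, and this pair too was chosen after its values were seen.

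**Figure D2:**
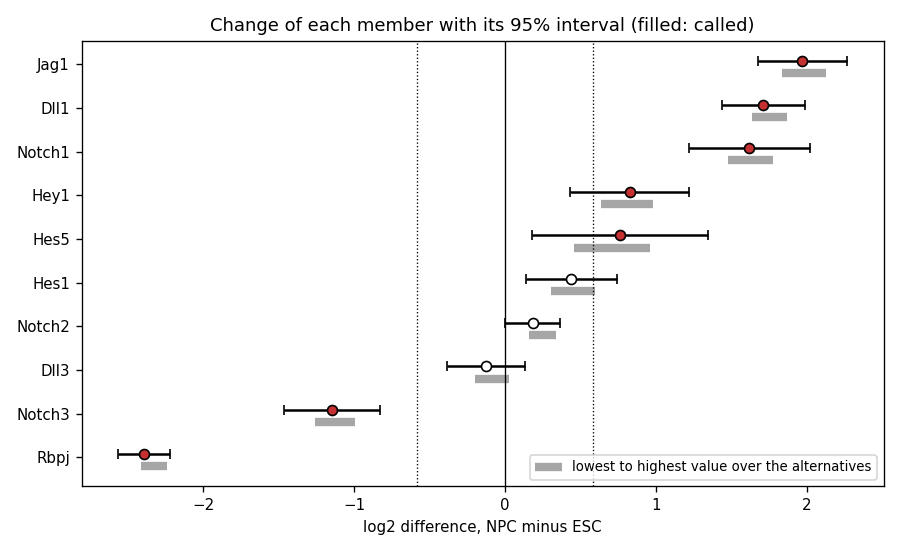
Log2 difference of each gene, NPCs minus ESCs, from limma on 6 arrays, with the 95% confidence interval (points and black bars, filled where called). Gray bars run from the lowest to the highest value over the alternatives, which include the fits with an array left out. Dotted lines mark 1.5-fold. Jag1, Dll1 and Notch1 sit between 1.62 and 1.97, and Notch3 and Rbpj are the called genes below 0.

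The effectors were higher in NPCs in every array, but by less than Notch1, Dll1 and Jag1. Hey1 (ENSMUSG00000040289_at), a Hairy-related repressor, read 6.17, 6.13 and 6.27 in the ESC arrays and 6.90, 6.74 and 7.40 in the NPC arrays. The NPC arrays were all above, and replicate 3 was the highest. The mean rose from 6.19 ± 0.072 (SD, n = 3 arrays) to 7.01 ± 0.34, a log2 difference of 0.83 (standard error 0.17, adjusted p = 0.00509 from limma) or 1.77-fold. It was called in each of the leave-one-out fits and lost its call where each cell type kept its own variance without moderation, at an adjusted p of 0.107.

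Hes5 (ENSMUSG00000048001_at), the HES gene that most closely follows Notch activity in neural progenitors, read 5.12, 5.11 and 5.12 in the ESC arrays. The NPC arrays read 5.66, 5.49 and 6.50, so that all were above the ESC arrays and replicate 3 stood 0.92 above the mean of the other 2. The mean was 5.12 ± 0.0064 (SD, n = 3 arrays) in ESCs and 5.88 ± 0.54 in NPCs, and the log2 difference was 0.76 (standard error 0.25, adjusted p = 0.0367 from limma), or 1.70-fold. Without NPC replicate 3 the difference was 0.46, below the 1.5-fold threshold, although its adjusted p was then 0.00175 in the same test. The call was also lost with any of the ESC arrays left out, at adjusted p = 0.0931 without replicate 1, 0.0969 without replicate 2 and 0.101 without replicate 3.

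Hes1 (ENSMUSG00000022528_at), the most widely expressed HES gene, read 8.17, 8.22 and 8.08 in ESCs and 8.44, 8.48 and 8.86 in NPCs. Its NPC arrays were all higher, with replicate 3 the highest. The log2 difference of 0.44 (95% interval 0.14 to 0.74, adjusted p = 0.0242 from limma) passed on p but not on size, since it is 1.36-fold. The adjusted p was above 0.05 with any of the ESC arrays left out, at 0.0685 without replicate 1, 0.0540 without replicate 2 and 0.0846 without replicate 3, with the replicate number as a block (0.0520), and with separate variances (0.143). With each array centred on its median the difference was 0.59 and was called.

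Rbpj (ENSMUSG00000039191_at) showed the largest change of the 10 genes, and it was a fall. It read 10.28, 10.25 and 10.20 in the ESC arrays and 7.84, 7.84 and 7.87 in the NPC arrays. Both cell types were tight, and 2.32 separated the nearest arrays. Its mean went from 10.24 ± 0.040 (SD, n = 3 arrays) to 7.85 ± 0.021, so that the log2 value fell by 2.39 (standard error 0.073, adjusted p = 5.07e-07 from limma), which is 5.25-fold. Of all genes, 3.33% fell by more. With any array left out the log2 difference lay between -2.41 and -2.37. The RefSeq table lists 3 Rbpj pseudogenes, and whether the probes of this row also read them is not given in the sources used here. The gene for the DNA-binding partner thus fell in the same arrays in which Notch1, Dll1, Jag1, Hes5 and Hey1 rose. Within an array, the log2 ratio of Hes5 to Rbpj shifted up by 2.94, 2.78 and 3.75 in NPC replicates 1, 2 and 3. These shifts are relative to the ESC mean of the ratio, around which the ESC arrays stayed within -0.030 and 0.047. The mean shift of 3.15 is mostly the fall of Rbpj, as Hes5 itself rose by 0.76. An exact two-sided permutation test of the 3 arrays against 3 gave p = 0.1, the smallest possible. This is another pair chosen after its values were seen.

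**Figure D3:**
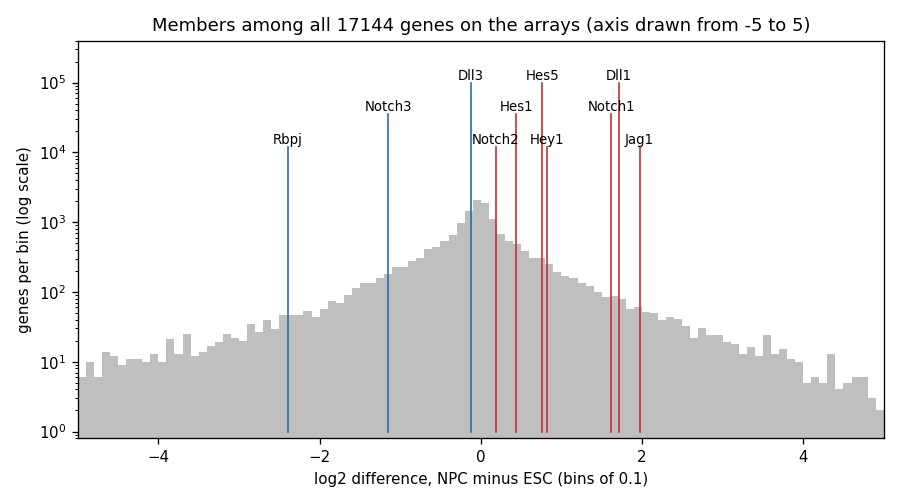
Number of genes per bin of 0.1 in the log2 difference, NPCs minus ESCs, for all 17144 genes (gray, log scale, with larger changes beyond the drawn range left out), with a line at each of the 10 genes (red, above 0; blue, below 0; line heights carry no value). Rbpj lies where 3.33% of genes fell by more and Jag1 where 3.56% rose by more, so neither is at the far end of the distribution.

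The spread among NPC arrays was not even over the pathway. The median SD of a member went from 0.072 in the ESC arrays to 0.22 in the NPC arrays, against 0.092 and 0.14 over all genes. NPC replicate 3 was above both other NPC arrays for 6 of the 10 members, against 37.9% of all genes. These were Notch1, Notch3, Rbpj and the 3 effectors Hes1, Hes5 and Hey1. Relative to the mean of NPC replicates 1 and 2, replicate 3 was higher by 0.92 for Hes5, 0.58 for Hey1 and 0.40 for Hes1 on the log2 scale, and by 0.35 for Notch1. Rbpj differed by 0.036 and Dll1 by 0.0020. Jag1 differed by -0.27, with NPC arrays at 7.98, 8.32 and 7.88, so its highest value was in replicate 2. Whether ligand and effector values move together was not tested. No member stood apart in replicate 3 by more than 1, which 4.00% of all genes did, and 1 member, Hes5, did so by more than 1.5-fold, against 11.6% of all genes.

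**Figure D4:**
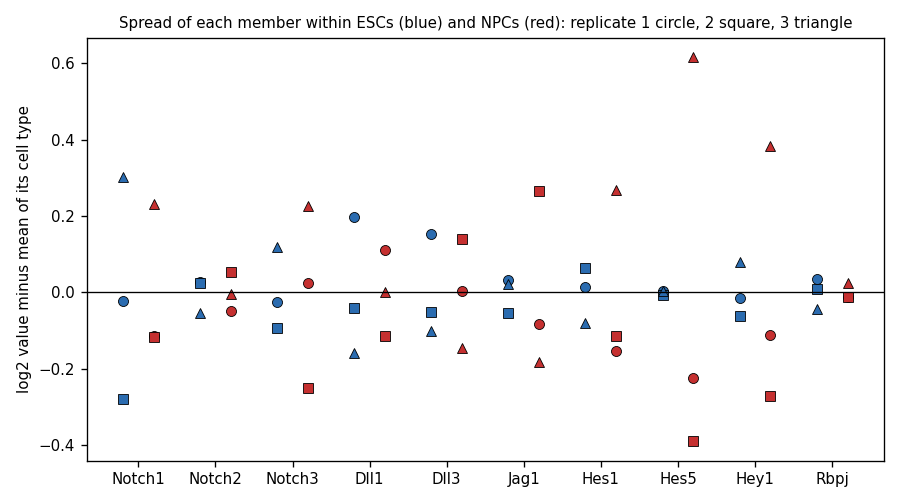
Log2 value of each gene on each array minus the mean of its cell type (blue, ESC arrays; red, NPC arrays; circle, square and triangle for replicates 1, 2 and 3). The red triangles of Hes1, Hes5 and Hey1 are the highest points of their genes, while those of Jag1 and Dll3 are the lowest of theirs.

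Genes of other cell types moved with NPC replicate 3 as well. Of the neuron list, 2 of 10 genes could be named, and Dcx and Syt1 were lower in replicate 3, with differences of -1.20 and -2.08 from the mean of replicates 1 and 2. The log2 of their summed linear values was 7.24 and 7.35 in NPC replicates 1 and 2, 5.44 in replicate 3, and 4.52 to 4.68 in ESCs. The 8 named progenitor genes summed in the same way gave 14.03, 13.95 and 14.43 in the NPC arrays and 9.86 to 10.00 in ESCs. Slc1a3, the glutamate transporter of radial glia and astrocytes, was higher in replicate 3 by 1.10. For the 2 named astrocyte genes of 8, Aldoc and S100b, the sums were 10.52, 10.51 and 11.04 in NPCs and 8.16 to 8.20 in ESCs. The 2 named genes of 8 on the oligodendrocyte lineage list, Olig1 and Cnp, gave 13.23, 13.24 and 13.02 in NPCs and 9.36 to 9.44 in ESCs. The part of these differences in the values of Hes1, Hes5 and Hey1 was not tested.

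Beyond the 10 members, a list of 63 further Notch pathway genes was set out, of which 11 could be named on the arrays. All 11 were called higher in NPCs, none lower, against 15.4% of all genes called higher. The direction of these 11 again follows from the naming and says nothing about the other 52. Their sizes and spread are a description. For processing of the receptor, Adam10, the protease that makes the first cut after ligand binding, went from 6.70 ± 0.12 (SD, n = 3 arrays) to 8.80 ± 0.30, and Aph1b, a gamma-secretase subunit, from 5.31 ± 0.15 to 7.41 ± 0.35. Mib1 and Neurl1b, ubiquitin ligases that drive ligand endocytosis, rose by 0.99 and 1.15 on the log2 scale, with adjusted p = 0.000142 and 0.0268 from limma. Neurl1b read 7.12, 6.54 and 5.65 in the NPC arrays, so replicate 3 was close to the highest ESC array at 5.53.

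Lfng, the Fringe glycosyltransferase that tunes the receptor toward Delta ligands, read 4.82, 4.63 and 4.77 in ESCs and 6.15, 6.37 and 7.61 in NPCs. Like Hes5 it was highest in NPC replicate 3, by 1.35 over the mean of the other 2. Its log2 difference was 1.97 (standard error 0.35, adjusted p = 0.00284 from limma). Dtx4, a Deltex ubiquitin ligase that acts on the receptor, rose by 1.73 and was also highest in replicate 3, by 0.67.

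On the repressing side, Tle2, a Groucho-related corepressor that HES proteins recruit, went from 4.46 ± 0.32 (SD, n = 3 arrays) to 7.93 ± 0.25, a log2 difference of 3.47 (standard error 0.19, adjusted p = 7.34e-06 from limma). The corepressors Ctbp1 and Hdac2 rose by 1.70 and 0.94. Hes6, a HES family member known to oppose Hes1 and to promote neuronal differentiation, read 7.98, 8.08 and 7.95 in ESCs and 9.31, 9.43 and 8.63 in NPCs. It rose by 1.12 (standard error 0.20, adjusted p = 0.00296 from limma), and in NPC replicate 3 it was the lowest of the NPC arrays, with a difference of -0.74 from the mean of the other 2, where Hes1, Hes5 and Hey1 were the highest.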

How the data were processed

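RNA of 3 ESC and 3 NPC replicates was hybridized to Affymetrix mouse arrays. The authors deposited log2 values made by RMA, that is, background-corrected, quantile normalized over arrays and summarized to 1 value per Ensembl gene. Probes were assigned by the updated BrainCDF annotation, with version and build not given in the sources used here. Quantile normalization can hide a shift shared by most genes. Of 17208 rows, 64 control probe sets were left out. Groups and replicate numbers came from the sample labels. Arrays carry no read depth, and their number limits the precision.

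NPCs were compared with ESCs by limma (version 3.58.1 under R 4.3.3, moderated by eBayes, 6 arrays, no covariates) with Benjamini-Hochberg adjustment over 17144 genes, and called at an adjusted p under 0.05 and over 1.5-fold, as in the methods of the study, whose moderated Welch test was an alternative. The test was checked on simulated arrays. Members and lists were chosen with earlier results of these data known, so lists received no test. Named in the text are the members, called genes of the pathway lists and, per member, the nearest named gene by pattern. Member names came with their identifiers. Other names came from printed rows of the supplementary expression sheets whose 6 values equalled a deposited row within 0.0001, since the RefSeq table at hand pairs no Ensembl identifiers, and 2004 genes were named so, nearly all of them ones that rose. The authors' fold changes and p-values in those sheets were not used. Protein sequences were not used here, and single values of some list genes are not reported here. Python 3.11.15, pandas 2.3.3, scipy 1.17.1 and matplotlib 3.10.9 made tables and figures.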

Additional observations from a re-analysis of the deposited data

How the results depend on the processing

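Of 268 values under an alternative, 254 kept their direction and their side of the threshold, or, for a count, stayed within 1.5 times the reported one. The 268 include counts of the named pathway genes called higher or lower, whose direction follows from the naming. For a gene, the side is whether it was called. Hes1, not called in the main fit, thus counted as kept where its adjusted p rose above 0.05. The median difference of the members counted as kept when it moved by less than the SD of that median among the NPC arrays. By that rule 0.38 without NPC replicate 3 was kept. Alternatives that change only the test or the threshold leave the differences themselves unchanged. Notch1, Notch3, Dll1, Jag1 and Rbpj were called and Notch2 and Dll3 were not called under each alternative run. Separate variances per cell type without moderation, and a threshold of 2-fold, each left 3 members higher in NPCs in place of 5, because Hes5 at 0.76 and Hey1 at 0.83 were no longer called. Each also left 5 members called in place of 7 and 8 of the named pathway genes higher in place of 11. With each array centred on its median, Dll3 turned to 0.028 and Hes1, at 0.59, was called. That centring moved the median difference of all genes from -0.036 to 0.12. Hes1 at 0.44 was also called with no fold change threshold. Hes5 was left out by the filter at the median of the mean value. With a limit of 1.5-fold in place of 1, the number of members apart in NPC replicate 3 was 1 and not 0.

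With each array left out in turn, 6 to 7 members were called, 4 to 5 higher and 2 lower in NPCs, and 10 to 11 of the named pathway genes were higher. The difference of Hes5 then lay between 0.46, without NPC replicate 3, and 0.96, without NPC replicate 2. The median difference of the members lay between 0.38, without NPC replicate 3, and 0.73. The cause was not tested. Deviations of arrays with the same replicate number correlated across genes at 0.026, 0.011 and -0.0064. Each deviation is from a mean of only 3 arrays, so these values cannot show whether arrays of the same number were handled together. Adding replicate as a block to the fit, 7 members were called, 5 higher and 2 lower, all with the same differences, and 5867 genes were called in place of 5851.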

Other observations

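For each member, the named gene with the most similar pattern over the 6 arrays was sought by the root mean square distance between log2 values after each gene's own mean was subtracted, over 2010 other named genes. Hey1 had the closest neighbor, Ap1m1, a subunit of a clathrin adaptor, at a distance of 0.044. Jag1 was closest to Ak3, an adenylate kinase of mitochondria, at 0.081, and Dll1 to 2810417H13Rik, which encodes a PCNA-associated factor, at 0.085. Notch1 was closest to Rgs20, a regulator of G protein signaling, at 0.10, and for these 4 members no unnamed gene was closer. Hes5 was closest to Hrh1, a histamine receptor, at 0.098, and 5 unnamed genes were closer. For Rbpj, Notch3 and Hes1 the nearest named genes were Rfx2, Pou2f1 and Rfx3, but 119, 807 and 751 unnamed genes were closer, and Notch2 and Dll3 had each other as the nearest named gene with 5454 and 4656 unnamed genes closer. Few genes that fell or stayed level have a name here. A distance over 6 arrays of 2 cell types reflects mostly the size of the difference between the cell types.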
